A study of Mus musculus with 41 samples.

Results

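Follicular B cells of the mouse spleen were compared between wild-type (wt) mice and mice with reduced MEK gene dose, using the 8 Follicular libraries among the 41 of the series: 4 titled wt and 4 titled 1Mek2. The cells had been sorted as B220+CD93-CD138-GL7-FAS-CD21+CD23+ from mice aged 3 to 5 months, and polyadenylated RNA was sequenced. The mutant mice were Mek1flox/flox and Mek2+/-, and carried the Vav1-icre transgene. Vav1 drives expression across blood cells, so recombination was not limited to B cells in this model, and the Mek2 change is not given as conditional. Whether the wt mice carried Cre is not stated. Each library name carries a different number, read here as the animal, but no label says that the libraries came from separate mice; p-values measure the spread between these libraries.

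MEK1 (gene Map2k1) and MEK2 (gene Map2k2) are the kinases that phosphorylate and activate ERK downstream of RAS and RAF. In B cells this cascade is engaged by the antigen receptor. Active ERK induces immediate early transcription factors, such as those of the EGR and NR4A families, and its own inhibitors, such as the DUSP phosphatases and the Sprouty proteins.

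Values are read counts over the whole gene, introns included (gene-span counts), scaled to library size by TMM (CPM). Differences are log2 fold changes of 1Mek2 minus wt with their standard error (SE), from edgeR's quasi-likelihood F test. Values of single libraries follow the order wt replicates 1 to 4, then 1Mek2 replicates 1 to 4. Total counts ran from 18875222 to 33450184 per library. In bulk RNA, fewer cells of a type and less RNA per cell cannot be told apart.

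The libraries carried the markers of mature B cells, and they stood apart from each other in ways the genotype labels do not give. Fcer2a, the gene of the sorting marker CD23, was at 250.4 to 1204 CPM, and Cr2, the gene of CD21, at 289 to 881. Ms4a1 and Ighd are listed at 0 in every library of the count table; by exon reads, recovered from the deposited TPM, they were at 302 to 2287 and 476 to 2149 CPM. Of genes that mark other cells, Rag1 was at 0 and Dntt reached 0.12 CPM, whereas Cd3d of T cells was at 1.31 to 85.8, Hba-a1 of red cells at 14.9 to 162, Jchain of plasma cells at 2.46 to 84.4 and C1qa of macrophages at 12.8 to 34.9. The first principal component (39.6% of the variance) set wt replicate 4 and 1Mek2 replicate 2 apart from the other 6; these are called type 1 and the rest type 2. The second component (29.6%) set 1Mek2 replicate 1 apart, in which 1006 genes lay more than 1 log2 unit above, and 1289 below, every other library. By Ddx3y, a Y-linked gene, wt replicate 2 and 1Mek2 replicates 1 and 3 came from males.

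The share of reads on exons moved with the genotype within each type. Exon reads were 63.2, 64.3 and 61.7% of gene-span counts in the wt libraries of type 2 against 81.5, 73.9 and 74.0% in the 1Mek2 ones, and 87.3 against 95.5% in type 1. Long neuronal genes, which blood cells do not use, were taken as a measure of intronic or genomic background. The source of these reads was not tested. Without TMM scaling they summed to 51.9, 80.5, 69.8 and 30.3 CPM in wt and to 25.1, 15.3, 37.6 and 35.0 in 1Mek2 libraries. With TMM scaling the sums were 47.7, 74.7, 60.4 and 30.3 in wt and 30.7, 17.4, 37.3 and 34.5 in 1Mek2 libraries. The genotypes thus overlapped in either sum only through wt replicate 4. Values in exon reads, with the gene-span trend removed or with the unscaled long neuronal sum as a covariate (background term) are given beside results below. As that sum largely follows the genotype, a fit with the background term cannot fully tell background from genotype.

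**Figure D1:**
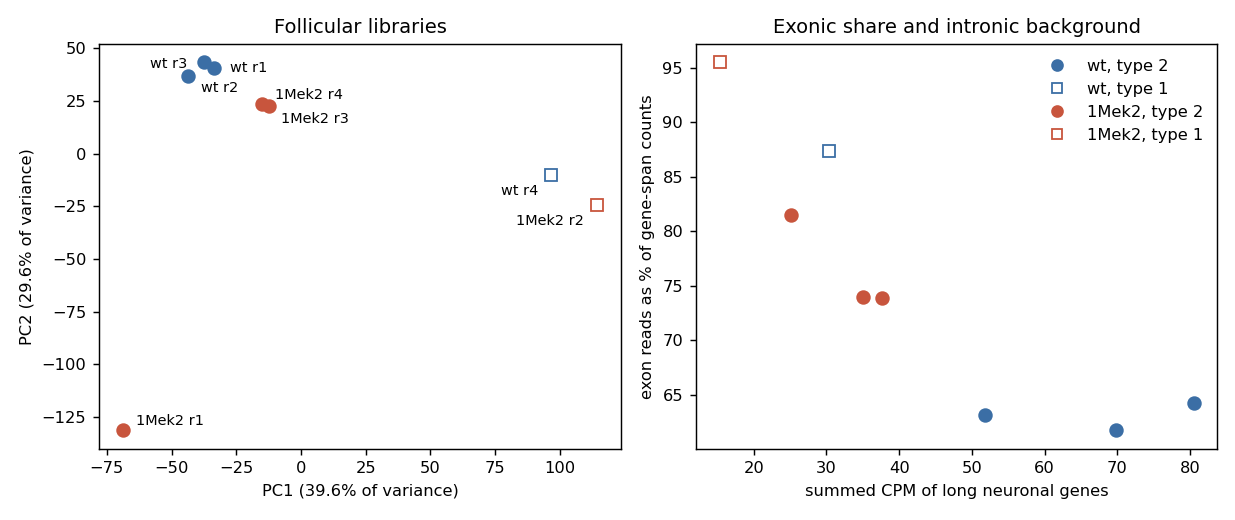
The 8 Follicular libraries on the first 2 principal components of log2 CPM (left), and exon reads as a percent of gene-span counts against the summed CPM of long neuronal genes, without TMM scaling (right); each point is a library. The 2 type 1 libraries lie at the right of the first component and 1Mek2 replicate 1 lies alone at the bottom, and the exonic share is higher in 1Mek2 than in wt libraries of the same type.

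The targeted genes did not follow the label at the level of gene-span reads. Map2k1 (chromosome 9, 64093066 to 64160887, GRCm39) was at 246, 297, 233 and 283 CPM in wt and at 241, 279.9, 225 and 251 in the 1Mek2 libraries, a log2 difference of -0.09 ± 0.25 (SE; adjusted p = 0.927). The ranges overlapped, with only 1Mek2 replicate 3 below every wt library. Map2k1 spans 67822 bases and its introns are counted, so loss of a small floxed part would change these counts little. They cannot show whether recombination took place. Map2k2 was at 135, 132, 100.1 and 76.8 CPM in wt and at 338.5, 114, 136 and 149.5 in 1Mek2 libraries (0.73 ± 0.39, adjusted p = 0.496). The highest value, in 1Mek2 replicate 1, was thus in a genotype with 1 Mek2 allele. Exon reads of Map2k1 sorted by library type: 246 and 252 CPM in type 1, and 38.9 to 63.0 in type 2. The 1Mek2 libraries of type 2 had 38.9, 47.2 and 47.9 exon CPM and the wt ones 58.2, 50.4 and 63.0, without overlap within this type. These reads do not give the state of the alleles, and the text writes of libraries labelled 1Mek2.

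Across the transcriptome, no gene separated the genotypes past the multiple-testing threshold, but a small set of genes differed several-fold with no overlap between the 4 and 4 libraries. Of 14128 genes tested, 0 had an adjusted p under 0.05 in edgeR (0% called in either direction) and 1570 (11.1%) had an unadjusted p under 0.05: 1034 higher (7.32%) and 536 lower (3.79%). limma's voom test also called 0 genes, and DESeq2 called 134 (0.948%), of which 95 were higher and 39 lower in the libraries labelled 1Mek2. In 686 genes (4.86%) every library labelled 1Mek2 was above every wt library, and in 600 (4.25%) every one was below. With a term for library type, 195 genes were called (1.38%), 120 higher (0.849%) and 75 lower (0.531%). That count rested on single libraries: it was 2663 without 1Mek2 replicate 1, 5 without wt replicate 1, 1 without 1Mek2 replicate 4, and 0 without wt replicate 2, wt replicate 3 or 1Mek2 replicate 3. It was 8 with the gene-span trend removed as well, and 9 in exon reads.

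The genes with the lowest p among those higher in the libraries labelled 1Mek2 included a stress gene, a transcription factor and genes best known from muscle. Nfil3, a basic leucine zipper transcription factor (chromosome 13, 53121245 to 53136914), was at 0.84, 1.21, 0.70 and 0.51 CPM in wt and at 5.04, 15.6, 13.7 and 15.1 in 1Mek2 libraries. It was near absent in every wt library and lowest, among the others, in 1Mek2 replicate 1. Its difference was 3.92 ± 0.53 (adjusted p = 0.180 without and 0.0282 with the library type term). Gadd45g, a stress-induced gene whose product binds a kinase of the p38 and JNK pathways, was the most abundant of this set at 224, 158, 176.5 and 126 against 649, 419, 718 and 782 CPM. Both genotypes kept their type 1 library as the lowest. The difference was 1.91 ± 0.32 (adjusted p = 0.246, and 0.0152 with the type term).

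Cacna1s and Scn4a encode the pore subunits of the calcium and sodium channels of skeletal muscle. Cacna1s was at 5.22, 5.97, 3.20 and 7.53 CPM in wt and at 26.9, 33.7, 31.5 and 30.1 in 1Mek2 libraries, which lay close together (2.48 ± 0.35, adjusted p = 0.180). Scn4a was at 44.2, 44.1, 54.0 and 40.5 against 73.5, 296, 174 and 169 CPM (1.96 ± 0.40, adjusted p = 0.391). Myl4, a myosin light chain of atrial and embryonic muscle, was at 27.4 to 40.8 against 72.9 to 99.6 CPM (1.36 ± 0.27), and at 0.72 in exon reads. The remaining genes named by the rule on this side were Pltp, which transfers phospholipids between lipoproteins (3.48 ± 0.57), Slc15a3, a lysosomal peptide transporter (1.96 ± 0.38), Hdac11, a histone deacetylase (1.80 ± 0.36), Tha1, a threonine aldolase (1.87 ± 0.39), Psmb9, a catalytic subunit of the immunoproteasome (1.32 ± 0.27), Ampd2, an AMP deaminase (1.32 ± 0.28), and the predicted gene Gm4610 (1.68 ± 0.26). None of the 12 passed the main test, with adjusted p from 0.180 to 0.391, and all 12 were called with the type term. They were chosen by low p in the same libraries, where the types were also found, so these calls are no separate check.

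Antxr2, a cell surface receptor for extracellular matrix and anthrax toxin (chromosome 5, 98032547 to 98178876), led the genes that were lower. It was at 36.9, 33.6, 50.3 and 28.5 CPM in wt and at 9.01, 7.93, 9.94 and 7.63 in 1Mek2 libraries (-2.11 ± 0.31, adjusted p = 0.180, and 0.0152 with the type term). The 1Mek2 libraries held a narrow range well under the wt ones. In exon reads the genotypes overlapped through 1Mek2 replicate 2, at 7.37 CPM against 6.80 to 16.3 in wt. St8sia4, which adds polysialic acid to proteins, was at 284, 178, 227 and 202 against 89.2, 60.8, 79.5 and 71.1 CPM (-1.57 ± 0.28, adjusted p = 0.279). Atp1b1, a subunit of the sodium and potassium pump, was at 24.5, 30.8, 29.8 and 30.6 against 8.57, 10.9, 6.31 and 8.62 CPM (-1.75 ± 0.31, adjusted p = 0.279).

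Adjusted p of the other lower genes named by the rule ran from 0.391 to 0.420. Among them were Acvr2a, an activin receptor (-1.80 ± 0.38), Kctd12 (-1.61 ± 0.34), the predicted gene Gm32313 (-1.50 ± 0.32) and Slc16a7, a monocarboxylate transporter (-1.38 ± 0.34). Cdk17, a protein kinase, had -1.30 ± 0.27, and Trim24, a nuclear receptor cofactor, had -1.15 ± 0.28. Pign, of glycolipid anchor synthesis, had -1.06 ± 0.27. All 10 lower genes described here, chosen in the same way, were called with the type term. Of these 22 genes, 6 were called with the type term and the gene-span trend removed, and 6 with the type term in exon reads.

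**Figure D2:**
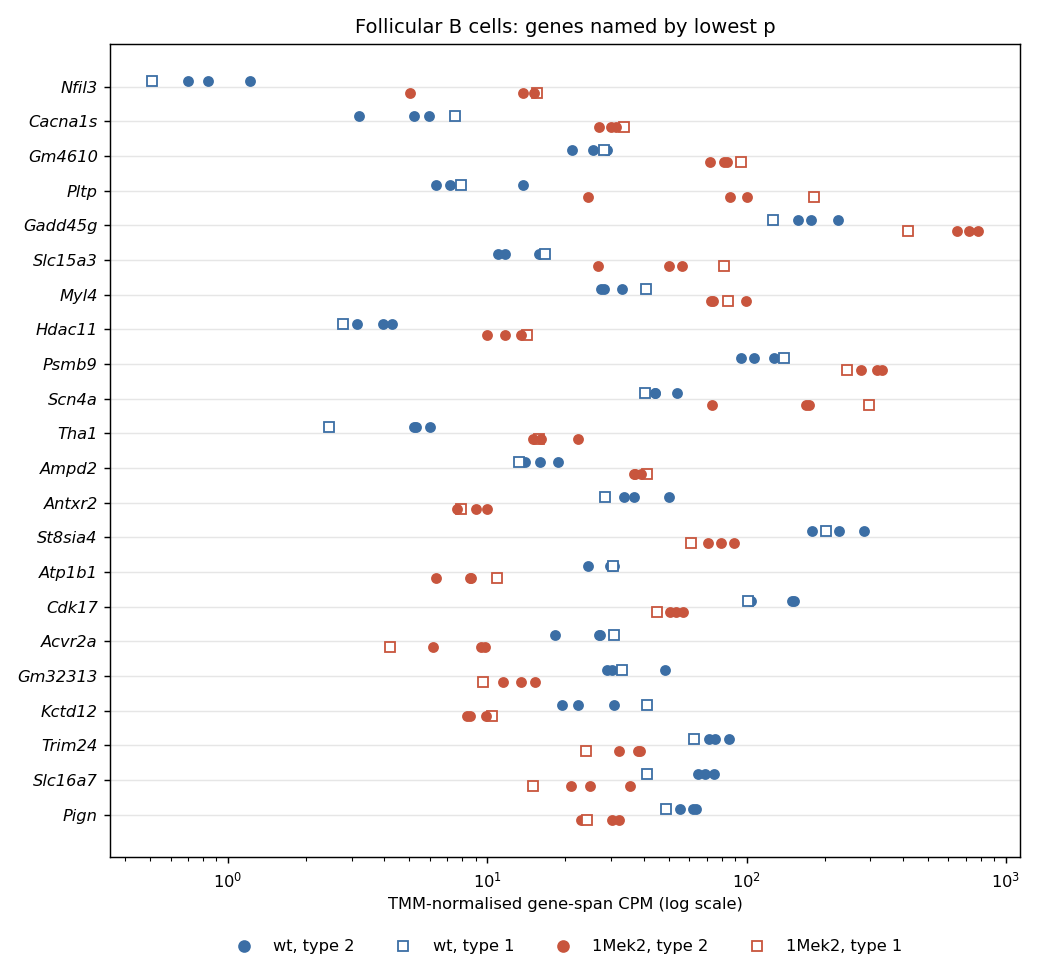
TMM-normalised gene-span CPM on a log axis of the 12 higher and 10 of the lower genes with the lowest p, among genes apart between the genotypes and averaging 5 CPM or more; each point is a library, open squares are type 1. The genotypes do not overlap in any of these genes, which is how they were chosen, and the differences run from -2.11 to 3.92 on the log2 scale.

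Genes listed as ERK targets or feedback inhibitors had mostly negative differences, with few reads behind several of them. The list also holds kinases downstream of ERK and Bcl2l11, so it is not one of ERK-induced genes alone. Its summed CPM overlapped, at 588.5 to 640.9 in wt and 492.4 to 654.2 in the libraries labelled 1Mek2. Of the 18 tested genes of the list of ERK targets and feedback inhibitors, 13 had a negative difference, as had 6861 of all 14128 genes tested, and the median was -0.71 against 0.02 over all genes. None was called in the main test; 3 were lower and 1 higher with no overlap, beside 4.25% and 4.86% of all genes. The median was -0.73 in exon reads and -0.51 with the gene-span trend removed (all genes 0.05 and 0.09), -0.14 with the background term, and -0.47 without 1Mek2 replicate 2.

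Among the feedback inhibitors, Dusp5, a nuclear ERK phosphatase, was at 6.61, 2.67, 9.76 and 4.78 CPM in wt and at 1.83, 0.27, 1.16 and 0.55 in 1Mek2 libraries (-2.66 ± 0.69, adjusted p = 0.420). Dusp4, a related phosphatase, was at 3.10, 3.17, 3.70 and 5.38 against 0.69, 2.44, 1.63 and 1.36 CPM (-1.32 ± 0.53). Both kept the genotypes apart in exon reads too. Dusp6, the cytoplasmic ERK phosphatase, was at 15.1, 15.4, 22.2 and 160.9 against 13.1, 50.9, 7.15 and 6.56 CPM (-1.46 ± 0.92, but 0.15 without wt replicate 4). Its 2 highest values were the type 1 libraries, and within each type the 1Mek2 libraries were lower. Spry2, an inhibitor of the RAS step, was under 1.5 CPM in every library and had -3.47 ± 0.86, but -0.78 in exon reads, where the genotypes overlapped.

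The kinases downstream of ERK had values on both sides. Rps6ka3 (RSK2) was at 203, 158, 187 and 95.4 against 105, 38.1, 110.4 and 102 CPM (-0.86 ± 0.39); it was the only member of the list called with the type term (adjusted p = 0.0453), and missed it with the gene-span trend also removed (adjusted p = 0.21). Rps6ka1 (RSK1) was at 41.6 to 59.5 in wt and 62.2 to 105.5 CPM in 1Mek2 libraries (0.58 ± 0.29). Bcl2l11, whose product BIM is marked for degradation by ERK, had 0.39 ± 0.35, and Myc 0.85 ± 0.99 (-0.88 without 1Mek2 replicate 2). These and Rps6ka3 were the most abundant members.

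Of 20 tested immediate early genes 11 were negative, and 3 were lower with no overlap, beside 4.25% of all genes. The median was -0.43 (-0.44 in exon reads, -0.70 with the gene-span trend removed, -0.29 with the background term, -0.23 without wt replicate 4 and -0.24 without 1Mek2 replicate 2). Nr4a3 was at 2.56, 2.43, 3.87 and 2.90 CPM in wt and at 0.76, 0.80, 0.89 and 1.253 in 1Mek2 libraries (-1.66 ± 0.50). Nr4a1, an orphan nuclear receptor gene used as a reporter of antigen receptor signalling, was at 33.3, 29.6, 51.8 and 82.5 against 14.6, 22.0, 28.7 and 29.1 CPM (-1.06 ± 0.40). The highest 1Mek2 value of Nr4a1 was just under the lowest wt one, and in exon reads the genotypes overlapped.

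Egr3 was at 11.9, 11.8, 16.2 and 17.3 against 10.5, 11.1, 5.73 and 4.75 CPM (-0.84 ± 0.40). Egr1 was at 16.7, 24.1, 38.9 and 14.6 against 15.0, 6.29, 5.995 and 7.04 CPM (-1.46 ± 0.45), with an overlap through 1Mek2 replicate 1. Of the most abundant members, Zfp36l1, an mRNA decay factor, had -0.30 ± 0.34, Junb 0.23 ± 0.73 and Ier2 0.09 ± 0.34. Adjusted p of all these genes was 0.42 or above, and from 0.0742 with the type term.

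The start regions of Dusp5 and Nr4a1 are shown because both genes were lower without overlap and their windows hold sites of factors tied to ERK signalling. The windows are from RefSeq (GRCm38.p6, an older build than that of the files), from 250 bases before to 50 after the start, as chr19:53528895-53529194 (plus strand) for Dusp5 and chr15:101266596-101266895 (plus strand) for Nr4a1. Capitals mark 2 adjacent, non-overlapping CArG boxes, the site of serum response factor, in Dusp5, and 1 EGR site in Nr4a1.
Dusp5: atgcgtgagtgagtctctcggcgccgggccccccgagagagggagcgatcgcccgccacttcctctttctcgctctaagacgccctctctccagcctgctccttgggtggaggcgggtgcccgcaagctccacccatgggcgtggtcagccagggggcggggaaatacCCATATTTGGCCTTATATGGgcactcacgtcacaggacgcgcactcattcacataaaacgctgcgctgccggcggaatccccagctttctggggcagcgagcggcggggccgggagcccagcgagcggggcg
Nr4a1: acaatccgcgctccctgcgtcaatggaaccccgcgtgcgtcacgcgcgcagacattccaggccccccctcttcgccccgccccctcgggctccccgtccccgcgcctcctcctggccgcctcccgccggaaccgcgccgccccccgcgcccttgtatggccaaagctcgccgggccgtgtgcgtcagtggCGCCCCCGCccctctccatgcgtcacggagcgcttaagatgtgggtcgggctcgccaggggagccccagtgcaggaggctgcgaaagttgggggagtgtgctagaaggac
The search covered both strands for the CArG box, the CRE (TGACGTCA), the EGR site (GCGGGGGCG), the AP-1 site (TGACTCA or TGAGTCA) and the ETS site (CCGGAAG). Of 32851 windows of this length, 1.63% hold a CArG box, 1.79% a CRE, 2.91% the EGR site, 5.2% the AP-1 site and 8.86% the ETS site. Among the 10377 tested genes with a window these shares are 1.62, 3.45, 5.82, 4.25 and 19.9%. The windows of Nr4a3, Spry2, Dusp6, Gadd45g, Nfil3 and Antxr2 hold none of these letters, and a match is a description of the sequence only. Dusp4 and Egr3, also lower without overlap, and Egr1 had no window of this length and were not searched.

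Genes of the cascade itself lay on both sides. Of 24 tested genes of the RAS-ERK cascade, 15 were negative with a median of -0.12 (0.11 with the gene-span trend removed, and -0.24 to -0.034 without single libraries). None was called with or without the type term, and 3 were lower with no overlap, beside 4.25% of all genes. Among them were Braf (-0.51 ± 0.29) and Rasa1, a RAS inactivator (-0.79 ± 0.34). Braf spans 122422 bases and Rasa1 74595, and their differences were -0.21 and -0.50 with the gene-span trend removed. The abundant adaptor gene Grb2 had 0.28 ± 0.38 and Rasgrp2 0.30 ± 0.39.

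**Figure D3:**
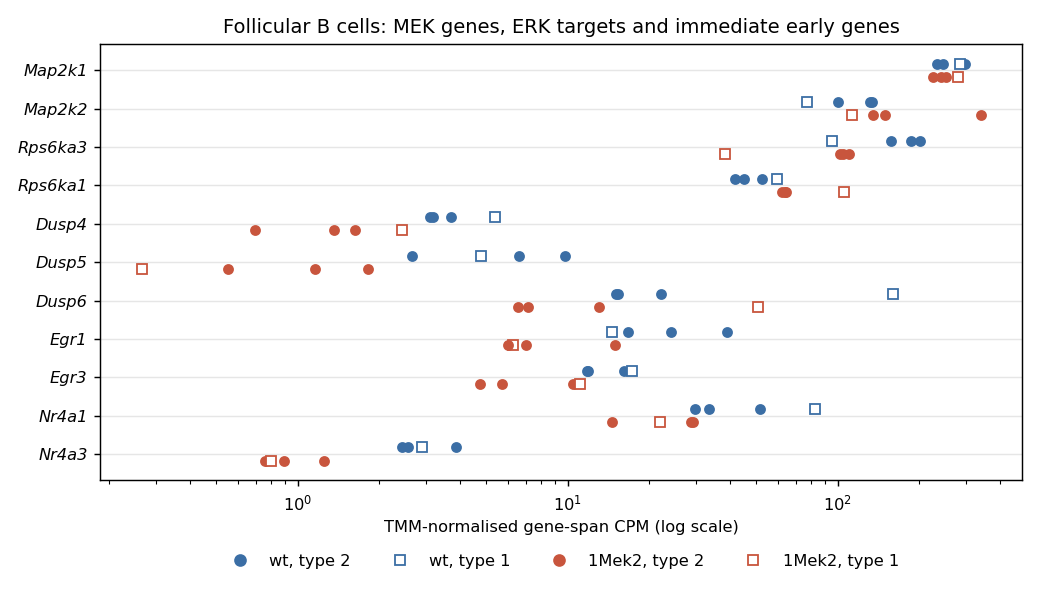
TMM-normalised gene-span CPM on a log axis of the MEK genes, ERK-related kinases and phosphatases and immediate early genes; each point is a library, open squares are type 1. Map2k1 overlaps between genotypes, and Dusp4, Dusp5, Egr3, Nr4a1 and Nr4a3 are lower in all 4 libraries labelled 1Mek2.

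Most genes of protein synthesis, protein turnover and energy metabolism had higher values in the libraries labelled 1Mek2, without a call in the main test and, for several lists, without a stable direction. All 33 tested cytosolic ribosomal protein genes were positive (median 0.77; 9 higher with no overlap), as were all 28 of oxidative phosphorylation (median 0.72; 5) against 51.4% of all genes tested. Of all genes 4.86% were higher with no overlap, and of the 2355 shortest 10.4% were. Of the proteasome genes 27 of 29 were positive (median 0.66; 7), of glycolysis 18 of 19 (median 0.65; 3), of Myc and nucleolar growth 21 of 23 (median 0.55; 3), and of the cell cycle 27 of 30 (median 0.62; 3). These genes are mostly short, and with the gene-span trend removed the medians were 0.49, 0.58, 0.59, 0.66, 0.49 and 0.54 against 0.09 for all genes. With the background term they were 0.42, 0.15, -0.22, -0.16, -0.31 and -0.53 against 0.06, so that the direction turned for the proteasome, glycolysis, growth and cell cycle lists. Without 1Mek2 replicate 2 these 4 medians were 0.38, 0.15, 0.086 and -0.054, and without wt replicate 4 those of the proteasome and cell cycle lists were 1.13 and 1.15. The summed CPM of ribosomal protein genes was 13230, 15730, 11320 and 20720 in wt and 32410, 27240, 21970 and 21100 in 1Mek2 libraries, so that wt replicate 4 came close to the lowest of the other genotype.

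Of the most abundant ones, Rps14 had 0.79 ± 0.31, Rps19 0.69 ± 0.28 and Rpl4 0.51 ± 0.70 among ribosomal proteins, and Cox4i1 0.92 ± 0.34, Uqcrc1 1.36 ± 0.47 and Ndufb8 1.11 ± 0.49 in the respiratory chain. In the proteasome, Psmb8, a catalytic subunit of the immunoproteasome, was at 522, 508, 376 and 814.5 in wt and at 1898, 1253, 959.5 and 944 CPM in 1Mek2 libraries (1.19 ± 0.35). Psmb9, its partner, was at 106, 127, 94.9 and 139 against 276, 243, 319 and 332 CPM, and Psmb10, the remaining immunoproteasome catalytic subunit, had 1.15 ± 0.36. All 3 thus lay apart between genotypes, and only Psmb9 was called with the type term (adjusted p = 0.0369). Psma7 had 0.82 ± 0.27 and Psmb6 1.17 ± 0.49.

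In glycolysis, Pkm had 0.99 ± 0.39, Eno1 0.78 ± 0.56 and Ldha 0.92 ± 0.64. Ldha was highest in the type 1 libraries, at 329.6 in wt and 629.9 CPM in the 1Mek2 one, and was called with the type term (adjusted p = 0.043). Gapdh (0.76 ± 0.27), Gpi1 (0.65 ± 0.34) and Pfkl (0.84 ± 0.30) were higher with no overlap. Of the growth genes, Nme1 was at 295, 394, 341 and 365 against 1285, 548, 736 and 681.5 CPM (1.22 ± 0.33). Srm, which makes spermidine, was at 20.6 to 31.2 against 45.2 to 73.1 CPM and was called with the type term (1.17 ± 0.30, adjusted p = 0.04), as was the nucleolar gene Nop2 (1.36 ± 0.47). Ncl and Npm1 had 0.40 ± 0.36 and 0.41 ± 0.54, and Bop1, of ribosome assembly, 0.90 ± 0.27.

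Chaperones of the unfolded protein response and enzymes of sterol synthesis also had mostly higher values. Of 25 tested genes of the unfolded protein response 20 were positive (median 0.67; 0.58 with the gene-span trend removed, but -0.17 with the background term, 0.20 without 1Mek2 replicate 2 and 1.05 without wt replicate 4) and none separated the genotypes fully. With the type term 4 of them were called, beside 0.849% of all genes called higher. They were Sdf2l1 (1.53 ± 0.43), Manf (1.23 ± 0.44), Hspa5, the chaperone BiP (1.19 ± 0.64), and Pdia6 (1.34 ± 0.78). Hspa5 and Pdia6 turned with the background term, to -0.57 and -0.61. Hspa5 was at 77.6, 82.6, 91.0 and 279 against 191.5, 729, 137 and 148 CPM, so that each 1Mek2 library was above the wt libraries of its own type. The most abundant members, Canx, Hsp90b1 and Syvn1, had 0.49 ± 0.43, 0.36 ± 0.66 and 0.74 ± 0.42.

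Of 24 tested cholesterol genes 20 were positive, with a median of 0.34. It was 0.09 with the background term, 0.21 without 1Mek2 replicate 2 and 0.79 without wt replicate 4. With no overlap, 4 were higher and 1 lower, beside 4.86% and 4.25% of all genes. The higher ones included Pmvk, Mvk and Mvd, 3 successive enzymes of the mevalonate pathway. Pmvk was at 35.4, 36.1, 27.2 and 40.7 CPM in wt and at 137.9, 62.8, 78.5 and 78.2 in 1Mek2 libraries (1.36 ± 0.32). Mvk was at 4.87 to 8.44 against 14.8 to 26.9 CPM (1.41 ± 0.36), and Mvd had 1.10 ± 0.38. Pmvk, Mvk and Fdps, which acts after them (1.11 ± 0.44), were called with the type term (adjusted p = 0.0478, 0.0488 and 0.04). That term called 0.849% of all genes higher. Abca1, which exports cholesterol, was lower with no overlap at 269.8, 246, 358 and 213 against 203, 63.6, 90.4 and 91.6 CPM (-1.28 ± 0.39). Srebf2, the master regulator of the pathway, had 0.04 ± 0.34 and Abcg1 0.40 ± 0.42.

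**Figure D4:**
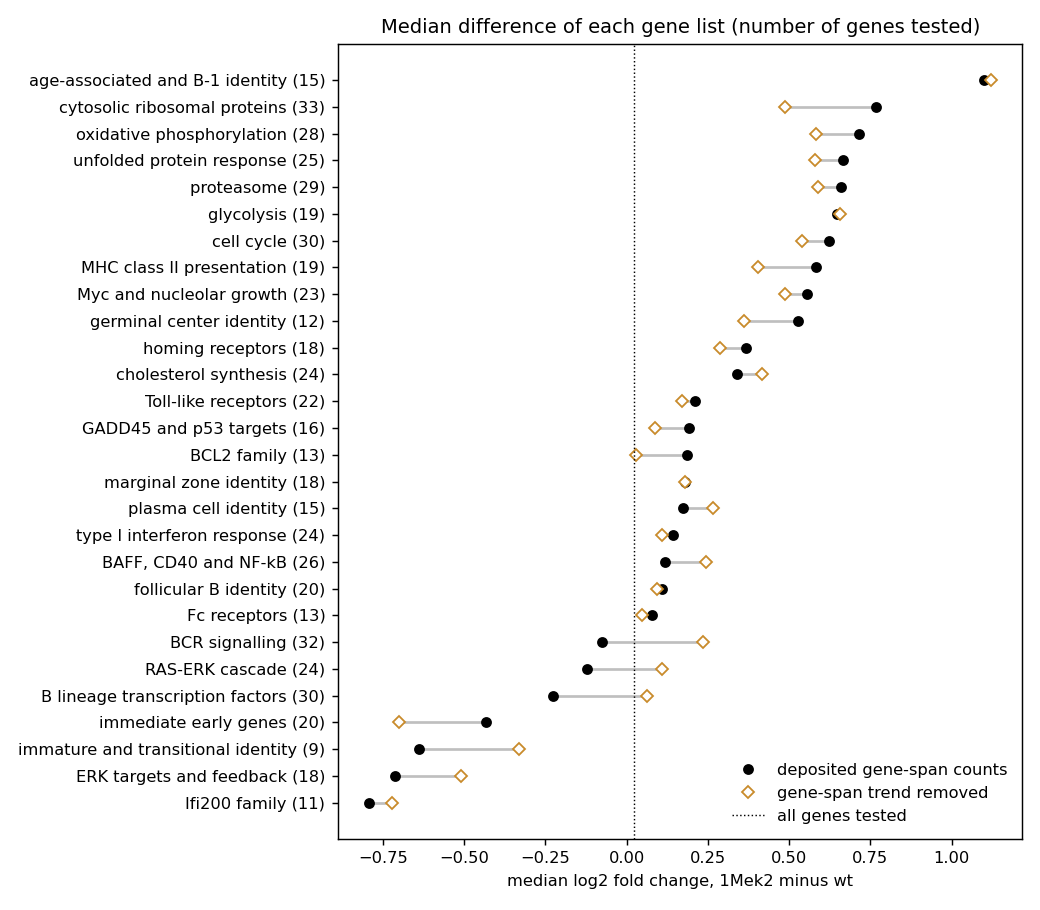
Median log2 fold change (1Mek2 minus wt) of each gene list with at least 5 tested genes, from the deposited gene-span counts (filled) and with the trend on gene span removed (open); the dotted line is the median of all genes tested, 0.02. Lists of protein synthesis and energy metabolism lie at 0.55 to 0.77, and the ERK target and Ifi200 lists at -0.71 and -0.79.

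Genes of antigen presentation had higher values in most members. Of 19 tested genes of MHC class II presentation 16 were positive (median 0.58; 0.40 with the gene-span trend removed, 0.14 with the background term and 0.20 without 1Mek2 replicate 2). With no overlap, 5 were higher and 1 lower, beside 4.86% and 4.25% of all genes. H2-Ab1, a class II chain, was at 4967, 4256, 3545 and 5499 CPM in wt and at 12100, 6922, 7857 and 6158 in 1Mek2 libraries (0.85 ± 0.31). H2-Aa, its partner chain, had 0.70 ± 0.30, and Cd74, the invariant chain, 0.68 ± 0.30. H2-DMa, which loads peptide, was at 646, 738, 586 and 1068 against 2573, 1667, 1400 and 1322 CPM (1.20 ± 0.33). Ciita, the factor that switches these genes on, was at 429 to 782 against 873 to 1713 CPM (0.84 ± 0.33), and Rfxank, a part of the complex it binds, had 0.70 ± 0.28. Rfxap, another part of that complex, was lower (-0.68 ± 0.44) at under 5 CPM. Lgmn, an endosomal protease, was the member called with the type term (1.37 ± 0.81, adjusted p = 0.04).

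The antigen receptor list had no common direction. Of 32 tested genes 15 were positive (median -0.08; 0.23 with the gene-span trend removed). Cd79a and Cd79b, the signalling chains of the receptor, were higher with no overlap (0.68 ± 0.33 and 0.85 ± 0.32), and Bank1, a scaffold that spans 272779 bases, was lower (-0.59 ± 0.27, but -0.05 with the gene-span trend removed). Of 20 follicular identity genes 2 were higher and 1 lower with no overlap (median 0.11), beside 4.86% and 4.25% of all genes. These counts were 1 and 1 of 18 marginal zone genes (median 0.18), 0 of 12 germinal center genes (0.53), and 1 and 0 of 15 plasma cell genes (0.17). Without single libraries the 4 medians ran from -0.14 to 0.24, 0.070 to 0.32, 0.27 to 0.77 and 0.017 to 0.52. Of these medians the follicular one was -0.02 in exon reads and the plasma cell one -0.08 with the background term. The plasma cell gene was Derl3, of protein disposal in the secretory pathway (1.56 ± 0.37, adjusted p = 0.0453 with the type term). Of 9 tested genes of immature B cells 7 were negative, with a median of -0.64. It was -0.33 with the gene-span trend removed, -0.35 among type 2 libraries, -0.44 without wt replicate 4 and -1.26 without 1Mek2 replicate 1. Among the negative genes was Cd24a, at 114.5, 127, 103 and 133 against 86.1, 47.4, 54.0 and 66.2 CPM (-0.91 ± 0.28).

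The list of age-associated and B-1 cell genes had a median of 1.10 over 15 tested genes (12 positive; 1.12 with the gene-span trend removed). Without 1Mek2 replicate 1 the median was 0.53, and with the type term as well 0.58. Itgax, the gene of CD11c, was at 0.29, 0.07, 0.59 and 0.81 CPM in wt and at 3.91, 10.01, 8.36 and 4.28 in 1Mek2 libraries (3.90 ± 0.75, adjusted p = 0.391, and 0.0387 with the type term). Cxcr3, a chemokine receptor, was at 0.40, 0.74, 2.50 and 3.76 against 5.49, 19.7, 9.94 and 4.28 CPM (2.40 ± 0.77). Apoe was at 49.8 to 65.3 against 79.6 to 257 CPM (1.10 ± 0.40), highest in 1Mek2 replicate 1. Plscr1 was called with the type term (2.08 ± 0.66, adjusted p = 0.016). Zeb2, a transcription factor of this subset, had 1.03 ± 0.59, and Fcrl5 0.26 ± 0.33.

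Genes of other blood cells stood beside this list at low levels and partly moved with the genotype. The 20 T cell genes summed to 408.7, 294, 428.5 and 821 CPM in wt and 1608, 1017, 649.9 and 539 in 1Mek2 libraries, and the 16 tested ones were split evenly, with 8 positive. The 11 NK cell genes summed to 6.67 to 24.7 against 23.9 to 97.8 CPM, and the 14 neutrophil genes to 0.37 to 2.08 against 1.47 to 51.0. Macrophage genes overlapped at 81.6 to 449 against 150.4 to 375 CPM, and dendritic cell genes, which include Itgax, at 31.2 to 45.6 against 39.7 to 70.0. Erythroid genes were at 73.2, 56.4 and 60.3 CPM in 1Mek2 replicates 2 to 4, 455 in replicate 1 and 140.5 to 331 in wt. Their part in the differences above was not tested.

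Interferon-inducible genes were held in separate lists, whose difference was not tested. Of 24 tested genes of the type I interferon response 14 were positive, with a median of 0.14. It was -1.12 with the background term, -0.57 without 1Mek2 replicate 2, -0.087 without wt replicate 2 and 0.74 without wt replicate 1. Zbp1, Isg15 and Bst2 were higher with no overlap, beside 4.86% of all genes. Zbp1, a sensor of nucleic acids in the cell, was at 22.6, 15.4, 24.3 and 30.0 CPM in wt and at 37.6, 152, 55.3 and 63.7 in 1Mek2 libraries (1.74 ± 0.45, adjusted p = 0.04 with the type term). Isg15 had 1.37 ± 0.41 and Bst2 0.85 ± 0.28. Ifi27l2a and Irf9, among the most abundant members, had 0.61 ± 0.44 and 0.79 ± 0.80; without 1Mek2 replicate 2, Irf9 had -0.61. All 11 tested genes of the Ifi200 family, a cluster on chromosome 1, were negative (median -0.79, and -1.33 without 1Mek2 replicate 2). Mndal was at 362, 321.5, 309 and 449 against 151, 244, 148.5 and 152.5 CPM (-1.05 ± 0.29) and was called with the type term (adjusted p = 0.0369). Ifi203 and Ifi209 had -0.50 ± 0.40 and -0.61 ± 0.65.

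Survival and stress genes held a few separated members. Rel, which encodes the NF-kB subunit c-Rel, was at 423, 408, 514 and 445 CPM in wt and at 211, 217, 250.5 and 270.1 in 1Mek2 libraries (-0.92 ± 0.25, adjusted p = 0.045 with the type term), and stayed apart in exon reads. Of 26 tested genes of BAFF, CD40 and NF-kB 17 were positive, with a median of 0.12. It was -0.21 with the background term and -0.098 without 1Mek2 replicate 2. With no overlap, 2 were higher and 1, Rel, was lower, beside 4.86% and 4.25% of all genes. The higher ones were Traf1 (0.78 ± 0.32) and Nfkbib, an inhibitor of NF-kB (0.73 ± 0.26). The abundant Birc3, Nfkbia and Nfkb1 had 0.05 ± 0.35, 0.64 ± 0.33 and -0.21 ± 0.25. Bcl2, which blocks mitochondrial cell death, was at 541, 482, 560 and 209 against 339, 109.5, 236 and 205 CPM (-1.01 ± 0.42, adjusted p = 0.0475 with the type term). This gene spans 176115 bases and had -0.55 with the gene-span trend removed and -0.46 in exon reads. Bcl2l2 had -1.48 ± 0.61 at under 4 CPM, Bax 0.95 ± 0.42 and Mcl1 -0.49 ± 0.35.

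Of 16 tested GADD45 and p53 target genes 11 were positive (median 0.19; -0.28 with the background term). Besides Gadd45g, Gadd45b (1.14 ± 0.40) and Sesn2, a stress gene that restrains mTORC1, were higher with no overlap, beside 4.86% of all genes. Sesn2 was at 9.13, 7.42, 8.999 and 2.96 CPM in wt and at 27.7, 30.9, 20.7 and 16.3 in 1Mek2 libraries (1.74 ± 0.43). Btg2 and Sesn1, among the most abundant of the list with Bax, had 0.19 ± 0.37 and 0.07 ± 0.43. Of the remaining lists, 15 of 22 Toll-like receptor genes and 14 of 18 homing receptor genes were positive. So were 9 of 13 Fc receptor genes and 9 of 30 B lineage transcription factor genes. The 4 medians were 0.21, 0.37, 0.08 and -0.23 (-0.058, 0.015, -0.28 and -0.094 without 1Mek2 replicate 2). With the gene-span trend removed they were 0.17, 0.29, 0.05 and 0.06. The B lineage median was -0.07 in exon reads. Those of homing receptors, Fc receptors and B lineage factors turned with the background term, to -0.35, -0.91 and 0.47.

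The sign of a gene's difference followed its span. In 6 bins of equal size the median log2 difference went from 0.50 in the shortest genes (median span 2572 bases) through 0.32, 0.13, -0.01 and -0.17 to -0.38 in the longest (130133 bases). Exon reads gave 0.42 in the shortest bin and -0.26 in the longest. Genes higher with no overlap made up 10.4% of the shortest bin and 0.637% of the longest, and genes lower with no overlap 1.02% and 9.81%. Of the 75 genes called lower with the type term, 56 were in the longest bin. With the trend removed, all 195 genes called with the type term kept their sign and 8 were called. Of the 1286 genes with no overlap, 1245 had exon reads and 574 were apart in the same direction there.

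**Figure D5:**
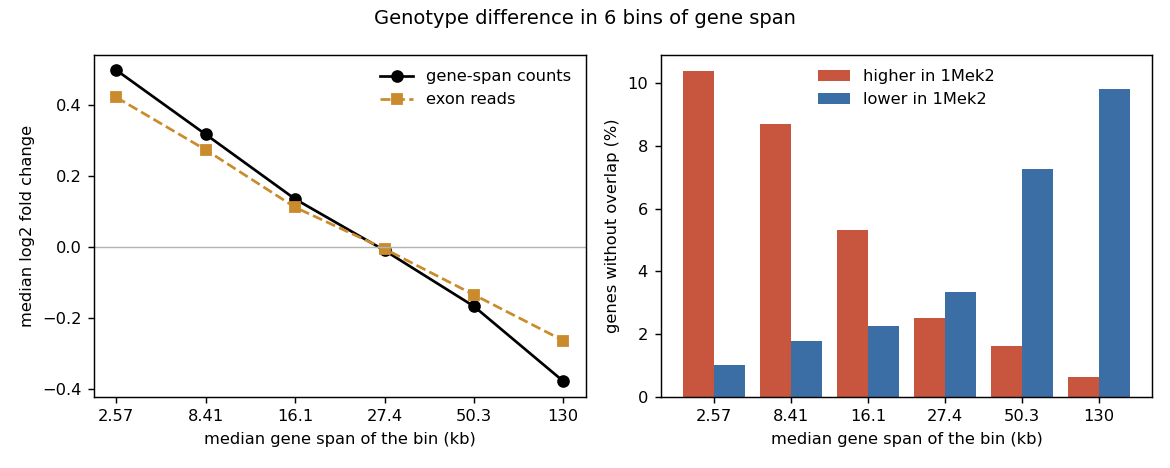
Genotype difference in 6 bins of gene span, each with 2354 or 2355 genes: the median log2 fold change in gene-span counts and in exon reads (left) and the percent of genes with no overlap between genotypes (right). The median falls from 0.50 to -0.38 with span, and genes higher in 1Mek2 libraries give way to genes lower in them.

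The genotype difference of follicular cells was then set against that of marginal zone (MarginalZone) and age-associated (ABC) B cells, each with 3 wt and 3 1Mek2 libraries, several of which carry the number of a follicular library in their names. Against marginal zone cells the difference changed in 1 of 15230 genes (0.00657%; 1425 at an unadjusted p under 0.05), and in 0 with the replicate number as block. That gene, A430005L14Rik, was at 26.6, 38.0, 21.1 and 77.2 CPM in follicular wt and 72.7, 75.4, 50.4 and 51.5 in follicular 1Mek2 libraries, whereas in marginal zone cells it was at 57.2, 32.3 and 44.7 in wt and 1.33, 1.03 and 2.47 in 1Mek2 libraries (interaction 5.41 ± 0.75, adjusted p = 0.0288). Against ABC it changed in 16 of 15572 genes (0.103%), all with a lower difference in follicular cells; exon reads and the replicate block gave 0, and voom with the animal as block 296. Psmd10, a proteasome chaperone, and Rnaseh2c, a subunit of an RNase H, were among these 16 and were chosen after their values were seen. Psmd10 had at most 0.45 CPM in every ABC wt library against 39.1 to 64.5 in the ABC libraries labelled 1Mek2, and 17.4 to 60.7 against 32.5 to 63.2 in follicular cells. Others of the 16 are genes that every cell uses: in ABC wt libraries Polr2g, an RNA polymerase II subunit, was at 1.55 to 3.57 CPM, Mrpl51, a mitochondrial ribosomal protein, at 0.097 to 1.51 and Timm10, a mitochondrial import chaperone, at 0 to 0.35. In the ABC libraries labelled 1Mek2 they were at 71.7 to 175.7, 39.8 to 126.7 and 27.3 to 96.4 CPM. The part of library or RNA quality of the ABC wt libraries in these calls was not tested.

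None of the 22 genes described first above differed in effect between subsets past the threshold (interaction adjusted p from 0.374 to 0.992 against marginal zone cells and from 0.0778 to 0.88 against ABC). In marginal zone cells Nfil3 had 3.11 ± 0.95, Gadd45g 3.33 ± 1.09, Scn4a 2.00 ± 0.64 and Cacna1s 2.24 ± 1.16, beside 3.92, 1.91, 1.96 and 2.48 in follicular cells. None of these was called there (edgeR adjusted p from 0.159 to 0.342). Nfil3, Gadd45g and Cacna1s overlapped between the genotypes there through 1Mek2 replicate 2, at 0.17, 0.46 and 1.26 CPM. Genes of opposite sign there were Slc15a3 (-0.91 ± 0.65), Tha1 (-0.66 ± 0.88), Cdk17 (0.31 ± 0.43) and Slc16a7 (0.47 ± 0.67). Antxr2 had -0.13 ± 0.53 there, beside -2.11 (interaction -1.99, adjusted p = 0.432). Of the 22 genes 18 had the same sign in marginal zone cells and 20 in ABC, where 54.5 and 64.8% of all genes shared the sign. Several of these libraries carry the numbers of follicular ones, so the sign counts are not independent of the follicular comparison. The 22 were also chosen for large follicular differences, unlike the genes they are set beside. In ABC wt libraries Nfil3 was at 0 to 0.50 CPM, Cacna1s at 0.09 to 0.80, Tha1 at 0 to 0.40 and Gadd45g at 0 to 1.36. Others were not near 0 there, such as Pltp at 9.52 to 52.9 and St8sia4 at 357 to 1491 CPM. The part of library or RNA quality of the ABC wt libraries in the ABC sign count was not tested.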

How the data were processed

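Members, gene lists and tests were chosen with earlier results of these data known. Per the submitters' processing notes, featureCounts 2.0.3, STAR 2.7.11a and Trim Galore 0.6.5 were used with GRCm39; which reads counted for overlapping genes, and whether strand was used, is not given in the sources used here, so reads of overlapping or antisense genes may be shared. Deposited by the authors were raw counts of 50763 genes, counted from gene start to gene end per the file headers, and TPM for 41075 entries, 6 of which named no gene. TPM multiplied by the deposited exonic length gave whole multiples of 1 step per library for 99.8 to 100% of values (tolerance 0.02); these exon reads served as an alternative.

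Groups came from the labels. Genes passing filterByExpr were TMM-scaled and tested with edgeR 4.0.16 (quasi-likelihood F test, robust dispersions; two-sided, Benjamini-Hochberg adjustment, threshold 0.05) in R 4.3.3; the SE was derived from the F statistic. Alternatives used limma 3.58.1, DESeq2 1.42.0, other filters, terms and left-out libraries. Library type was found in the values. Interactions were tested over the 2 subsets concerned. Named genes were Map2k1, Map2k2, then 12 per direction with a mean of at least 5 CPM, no overlap and the lowest p (no gene was called), then the 3 most abundant members of each list described in detail; other list members, separated or called with the type term, were chosen after their values were seen. Some genes that the rule names are not reported here. On simulated counts for 13850 genes the test recovered 20% of 100 genes changed by 1 and 91% of 100 changed by 2 on the log2 scale, with 9 false calls. The simulated spread was that left after a library type term, and no type difference was simulated. The main test kept that difference in its spread, so these shares do not give its power on the real counts.

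Depth was 18875222 to 33450184 gene-span counts per library; without molecular identifiers reads can repeat a molecule, and depth covers counting error only. Promoter windows were matched by symbol to a RefSeq table.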

Additional observations from a re-analysis of the deposited data

Results flagged for a closer look

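In 56 groups of 4 values checked for a single library far from the rest (chance marks about 1 in 20), 4 stood out. Map2k2 was at 338.5 CPM in 1Mek2 replicate 1 against 114 to 149.5 in the other libraries of that genotype. Tha1 was at 22.3 CPM in the same library against 15.0 to 16.1. Atp1b1 was at 24.5 CPM in wt replicate 1 against 29.8 to 30.8 in the other wt libraries. Exon reads were 87.3% of gene-span counts in wt replicate 4 against 61.7 to 64.3% in the other wt libraries.

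The genotype effect differed by a tested interaction in A430005L14Rik between follicular and marginal zone cells (5.41 on the log2 scale) and in 16 genes between follicular cells and ABC.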

How the results depend on the processing

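Several alternatives were chosen after the data were seen: removal of the gene-span trend, combinations of the type term with it, with exon reads, voom or DESeq2, voom with library weights, and the type term without single libraries. The follicular comparison called 0 genes as reported and also with RLE scaling, voom, exon reads, type 2 libraries alone, a term for sex, the replicate block, a fit on all subsets and the gene-span trend removed. It called 134 with DESeq2, 2 without a filter on low counts, 195 with the library type term, 2 with terms for sex and type and 23 with the background term. Leaving out 1 library gave 0 to 14, the highest without 1Mek2 replicate 1. The type term gave 8 with the gene-span trend removed, 9 in exon reads, 399 in voom and 2082 in DESeq2, and voom with library weights gave 3714. Without single libraries the type term gave 5 (wt replicate 1), 2663 (1Mek2 replicate 1), 1 (1Mek2 replicate 4) and 0 (wt replicates 2 and 3, 1Mek2 replicate 3). The cause of these shifts was not tested. Without the filter and in the fit on all subsets the median of all genes moved from 0.02 to -0.14 and -0.13. The same-numbered libraries of the genotypes carry different numbers in their names, so they share only a replicate number; their deviations correlated at 0.05, -0.51, 0.32 and -0.45, 1 of the 4 mutant libraries correlated best with its own number, and with the replicate block 680 genes had an unadjusted p under 0.05. Against marginal zone cells the interaction called 1 gene as reported, with voom and in exon reads, and 0 with the replicate block; against ABC it called 16 as reported, 296 with voom and the animal as block, 0 in exon reads and 0 with the replicate block.

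The 22 genes described by lowest p were chosen with the genotypes apart, which largely fixes their direction; it held under each of the 32 alternatives, as did that of 113 of 134 genes followed. Their choice by low p in the same libraries also bears on calls by other tests, which are no separate check. All 22 were called by DESeq2, and none with RLE scaling, voom, exon reads, type 2 libraries alone, a term for sex or the replicate block. Of 28 list medians 11 kept their sign throughout. The direction turned for the following genes, none of which was called in the main test. It turned for Map2k1 (0.19), Btg2 (-0.092), Ier2 (-0.26), Junb (-0.098) and Nfkb1 (0.17) with the gene-span trend removed. It turned for Birc3 (-0.20) and Ier2 (-0.027) in exon reads. It turned for Birc3 (-0.0069), Ier2 (-0.073) and Sesn1 (-0.10) with terms for sex and type. The turn came for Birc3 (-0.67), Btg2 (-0.021), Eno1 (-0.48), Hsp90b1 (-1.39), Hspa5 (-0.57), Irf9 (-1.34), Ldha (-0.60), Lgmn (-0.67), Myc (-1.45), Ncl (-0.31), Npm1 (-0.75), Pdia6 (-0.61), Rpl4 (-1.16), Sesn1 (-0.83) and Zfp36l1 (0.41) with the background term. The turn came for Birc3 (-0.064), Ier2 (-0.035), Sesn1 (-0.051) and Srebf2 (-0.087) in a fit on all subsets. The turn came for Birc3 (-0.16), Ier2 (-0.082) and Sesn1 (-0.38) with weighted voom. A turn was also seen for Hsp90b1 (-0.13) among type 2 libraries. A turn was also seen for Ier2 (-0.081) and Srebf2 (-0.062) with a term for sex. A turn was also seen for Junb (-0.32) with voom. A turn was also seen for Junb (-0.21) with the replicate block. Under the type term it turned with the gene-span trend removed for Map2k1 (0.19), Btg2 (-0.096), Ier2 (-0.28) and Nfkb1 (0.16), in exon reads for Birc3 (-0.22), Hsp90b1 (-0.025) and Ier2 (-0.099), without 1Mek2 replicate 1 for Birc3 (-0.12), Ier2 (-0.26) and Sesn1 (-0.29), without 1Mek2 replicate 4 for Btg2 (-0.0024), Hsp90b1 (-0.040) and Srebf2 (-0.011). Under that term it also turned without wt replicate 2 for Ier2 (-0.046), without wt replicate 3 for Ier2 (-0.027), in voom for Junb (-0.32), without wt replicate 1 for Sesn1 (-0.019) and Srebf2 (-0.021), without 1Mek2 replicate 3 for Srebf2 (-0.029). Leaving out 1 library gave these ranges: Birc3 -0.16 to 0.31, Dusp6 -2.58 to 0.15, Hsp90b1 -0.71 to 0.96, Ier2 -0.26 to 0.25, Irf9 -0.61 to 1.62, Junb -0.19 to 0.63, Myc -0.88 to 2.00, Npm1 -0.063 to 1.18, Rpl4 -0.36 to 1.52, Sesn1 -0.16 to 0.40 and Srebf2 -0.14 to 0.21.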
